A study of Mus musculus with 6 samples.

Results

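The adhesion receptors of mouse embryonic fibroblasts (MEFs) are described here: the integrins, the selectins with their ligand PSGL-1 (*Selplg*), and the immunoglobulin superfamily receptors ICAM, VCAM1, PECAM1, the junctional adhesion molecules, the nectins, NCAM1, L1CAM, ALCAM and MCAM. They were picked by gene name, with earlier results of these data known. The names picked out 46 of the 17092 genes measured, and a filter on low counts left 37 of the 46 for testing. In *Aff3ir-ORF2-/-* cells *Itgam*, *Itgb2* and *Itgal*, integrin subunits of white blood cells, were far above WT and *Itgb7*, another such subunit, was below it, while the integrins that bind matrix moved in both directions and by smaller amounts.

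Integrins are receptors made of 1 α and 1 β subunit. They tie the cell to collagen, laminin or fibronectin, or to receptors on other cells, and signal through talin and kindlin bound to the β tail. The αL, αM and αX subunits pair with β2 (*Itgb2*, CD18) and are restricted to leukocytes, whereas β1 (*Itgb1*) pairs with most α subunits of fibroblasts. Selectins slow leukocytes on the vessel wall by binding sugars carried by PSGL-1, and the ICAM and VCAM1 receptors on the wall are then held by β2 and α4 integrins.

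The RNA of MEFs, which are connective tissue cells cultured from embryos, was sequenced from WT mice and from mice with a whole-body deletion of *Aff3ir-ORF2*, a short transcript nested in the *Aff3* gene, made by Cas9 editing of fertilised eggs and intercrossing of heterozygotes. There were 3 libraries of each genotype, and both genotypes were grown in the same medium without a further treatment. The genotype was lost in all cells from fertilisation on, so the cultures carry any effect of development, and the embryonic age, the sex and the number of embryos behind a library are not given in the sources used here. Since nothing says that the libraries came from separate embryos or cultures, the p-values measure the spread between these libraries, which may be technical. RNA of whole cultures was measured, so a change in the share of a cell type and a change of RNA per cell cannot be told apart.

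Total counts were 17435133 to 17726034 in WT and 18209421 to 18252330 in *Aff3ir-ORF2-/-* libraries. The *Aff3ir-ORF2-/-* libraries varied more, with a biological coefficient of variation of 0.0996 against 0.0184 in WT, and *Aff3ir-ORF2-/-* replicate 2 stood apart on the second principal component (22.5, against -8.81 and -14.7 in the other *Aff3ir-ORF2-/-* libraries). *Aff3* (gene 16764), the host gene, had 406, 406 and 418 counts in WT, against 229, 186 and 209 in *Aff3ir-ORF2-/-* libraries. The log2 difference was -1.06 ± 0.09 (SE, n = 3, adjusted p = 1.23e-05 by edgeR's quasi-likelihood test), but reads of *Aff3* and of the nested transcript could not be separated, so this does not check the labels directly, and *Aff3ir* itself was not analysed here. The 10 fibroblast markers listed were all detected, from *Lum* at 15.1 CPM to *Col1a1* at 7363 CPM in WT (CPM are counts scaled to a common library size), and summed to 20408 to 20480 CPM in WT and 14069 to 18925 CPM in *Aff3ir-ORF2-/-* libraries.

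Levels below are CPM after TMM scaling, given as mean ± SD over 3 libraries, and differences are log2 fold changes of *Aff3ir-ORF2-/-* over WT with their SE from edgeR's quasi-likelihood test. A gene was said to rise or fall when its Benjamini-Hochberg adjusted p over all 13075 tested genes was under 0.05 and its fold change at least 1.5. Among the 37 tested adhesion receptors 18 rose, against 14.2% of all tested genes, and 3 fell, against 7.27%. The members' median log2 fold change was 0.63, beside 0.0056 over all tested genes. On the adjusted p alone 29 members passed, 23 of them higher and 6 lower, against 56.8% of all tested genes. The genotypes did not overlap for 23 members that were higher in *Aff3ir-ORF2-/-* cells and for 8 that were lower, which is the case for 33.3% and 32.7% of all tested genes. *Itgal* and *Selplg* passed the filter through *Aff3ir-ORF2-/-* libraries only, so they had to come out higher there. The plot of fold changes by class places each tested receptor.

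**Figure D1:**
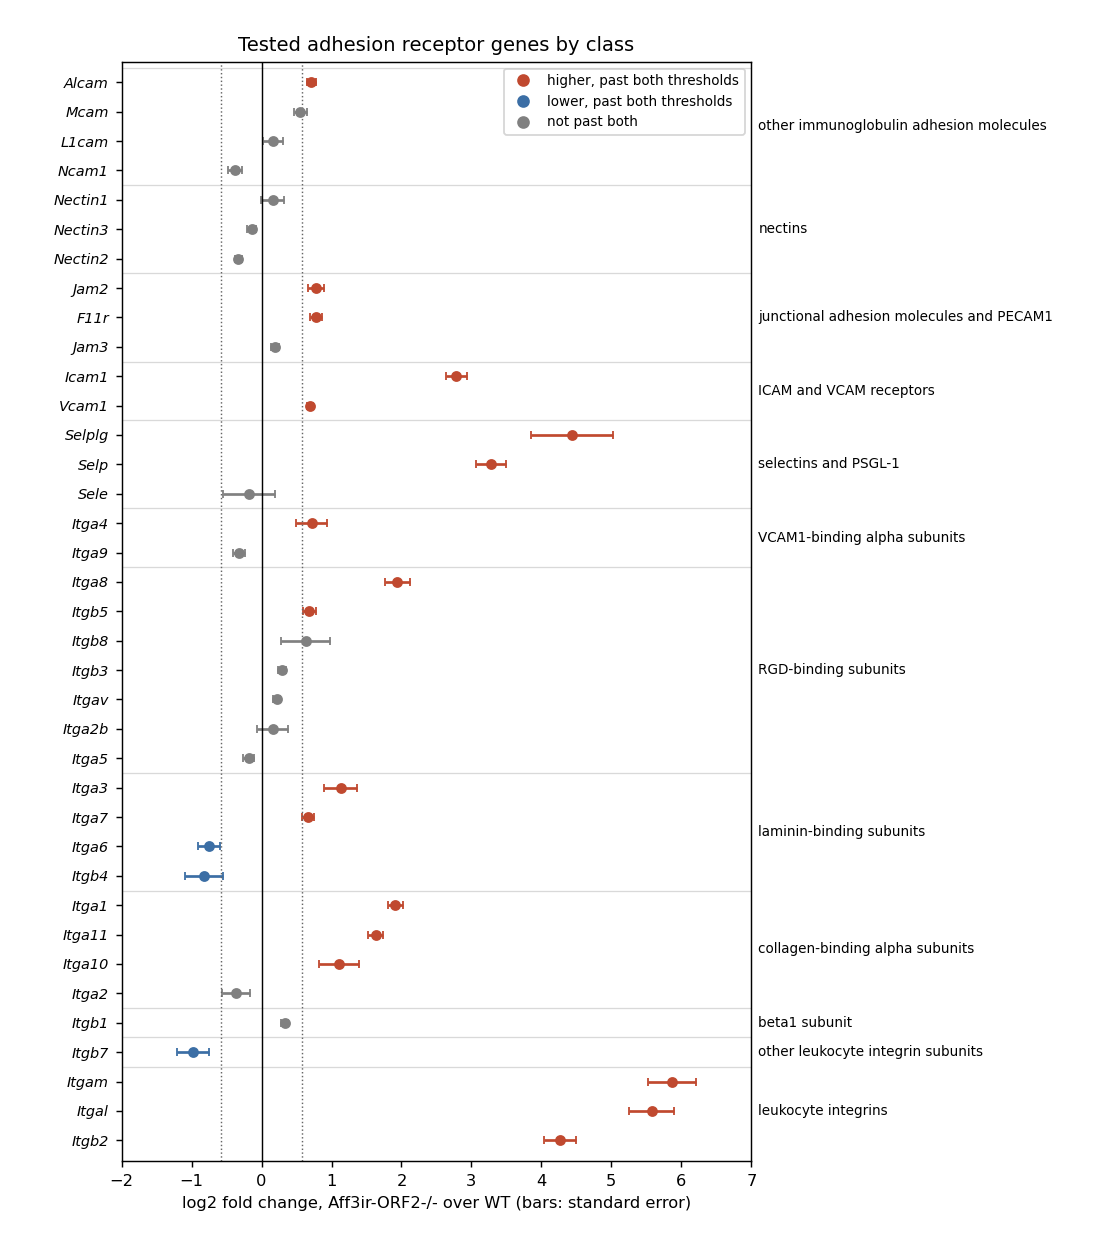
Log2 fold change of each tested adhesion receptor in *Aff3ir-ORF2-/-* over WT MEFs, with bars for the SE of the fit on 3 libraries a genotype, grouped by class; dotted lines mark 1.5-fold. The 3 leukocyte integrin genes lie between 4.27 and 5.86, and every tested matrix integrin lies between -0.82 and 1.94.

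The comparison the rule asked for was between *Itgal*, *Itgam*, *Itgax* and *Itgb2* and the matrix integrins. *Itgam* (16409) encodes αM, the α chain of the complement receptor Mac-1 of macrophages and neutrophils. It had 10, 15 and 18 counts in WT, against 665, 852 and 1150 in *Aff3ir-ORF2-/-* libraries, or 0.821 ± 0.227 against 48.3 ± 13.3 CPM. Its log2 fold change was 5.86 ± 0.34, a 58.3-fold rise (adjusted p = 2.99e-05 by edgeR's quasi-likelihood test).

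*Itgb2* (16414) encodes the β2 chain, without which αL, αM and αX do not reach the surface. Counts of 35, 46 and 33 in WT stood against 611, 755 and 963 in *Aff3ir-ORF2-/-* libraries, with means of 2.18 ± 0.386 and 42.2 ± 9.57 CPM. The rise was 4.27 ± 0.23 on the log2 scale, or 19.3-fold (adjusted p = 1.10e-05 by edgeR's quasi-likelihood test). The lowest *Aff3ir-ORF2-/-* library was far above the highest WT library for both genes.

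*Itgal* (16408) encodes αL, the α chain of LFA-1 that binds ICAM1. WT libraries held 3, 2 and 3 counts, which is at the floor of 3 counts per library, and *Aff3ir-ORF2-/-* libraries held 119, 123 and 178. The level of 7.61 ± 1.81 CPM was at least 44.2-fold above that floor. *Itgax* (16411), which encodes αX, the CD11c chain of dendritic cells and some macrophages, had 0, 0 and 1 counts in WT, against 15, 10 and 16 in *Aff3ir-ORF2-/-* libraries, too few for the filter. Its *Aff3ir-ORF2-/-* level was at least 4.32-fold above the floor, and in a fit without the filter its adjusted p was 1.51e-04 by edgeR's quasi-likelihood test over 17065 genes. With WT at the floor, *Itgal* and *Itgax* could hardly come out lower, so the direction is a result for *Itgam* and *Itgb2* only. *Itgax* stayed at a handful of reads a library.

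**Figure D2:**
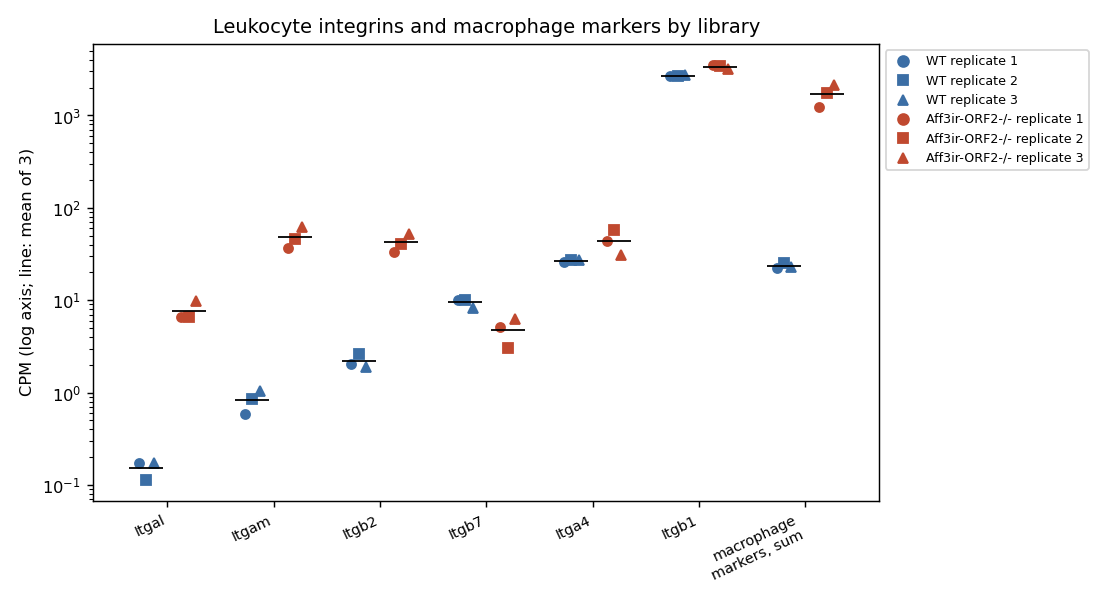
CPM of 3 leukocyte integrin genes, of *Itgb7*, *Itga4* and *Itgb1*, and the summed CPM of the macrophage markers in each library (points, log axis, lines for the mean of 3 libraries), by genotype. *Itgam*, *Itgb2* and the marker sum separate the genotypes widely and in 1 direction, as does *Itgal*, which had to come out higher. *Itgb7* lies lower in *Aff3ir-ORF2-/-* cells, and *Itgb1* differs by 1.26-fold.

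The macrophage markers moved with these genes. All 16 listed were called higher, but 8 of them, *C1qa*, *C1qb*, *C1qc*, *Fcgr1*, *Spi1*, *Tyrobp*, *Fcer1g* and *Mrc1*, reached the filter through *Aff3ir-ORF2-/-* libraries only and had to come out higher. The other 8 rose as well, beside 14.2% of all tested genes, with a median log2 fold change of 5.96. The summed level of the 16 was 22.1 to 25.1 CPM in WT and 1242 to 2161 CPM in *Aff3ir-ORF2-/-* libraries. That sum, *Itgam* and *Itgb2* all stood lowest in *Aff3ir-ORF2-/-* replicate 1 and highest in replicate 3. Most of the sum was *Lyz2*, at 794, 1086 and 1372 CPM in *Aff3ir-ORF2-/-* replicates 1, 2 and 3. *Adgre1*, *C1qa*, *C1qc* and *Fcgr1* were highest in replicate 2, and the other listed markers in replicate 3. *Itgam* took 2.94%, 2.63% and 2.90% of the macrophage sum in replicates 1, 2 and 3. *Itgb2* took 2.70%, 2.33% and 2.43%, and *Itgal* 0.526%, 0.380% and 0.449%. In WT, where the sum rests on few counts, *Itgam* took 2.62% to 4.51% and *Itgb2* 8.27% to 10.4%. The part of macrophage RNA in the rise of the leukocyte integrins was not tested.

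Markers of other leukocytes stayed low. The 6 T cell and natural killer genes measured summed to 1.04 to 1.26 CPM in WT and 0.933 to 1.61 CPM in *Aff3ir-ORF2-/-* libraries, with *Cd4*, *Zap70*, *Klrb1c* and *Nkg7* at the floor in both genotypes. The B cell genes, 2 of 6 listed, stayed at the floor, and the 4 neutrophil genes measured summed to 0.0569 to 0.406 CPM in WT and 0.751 to 1.20 CPM in *Aff3ir-ORF2-/-* libraries. *S100a8*, at 5, 1 and 4 against 17, 12 and 18 counts, was the 1 neutrophil gene tested and reached the filter through *Aff3ir-ORF2-/-* libraries only, and *Ly6g* and *Ngp* were at the floor in both genotypes.

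The promoters of *Itgam* and *Itgax* are shown because these encode the leukocyte α chains of the contrast that have a RefSeq entry. The 250 bases before the start of transcription are from RefSeq on GRCm38.p6, at chr7:128062390-128062639 on the plus strand for *Itgam* and at chr7:128129300-128129549 on the plus strand for *Itgax*. Letters in capitals match GAGGAA, the core bound by the myeloid factor PU.1, GGNNNTTCC, a loose form of the NF-κB site, or GAAANNGAA, a shortened interferon-response element, on either strand.
Itgam: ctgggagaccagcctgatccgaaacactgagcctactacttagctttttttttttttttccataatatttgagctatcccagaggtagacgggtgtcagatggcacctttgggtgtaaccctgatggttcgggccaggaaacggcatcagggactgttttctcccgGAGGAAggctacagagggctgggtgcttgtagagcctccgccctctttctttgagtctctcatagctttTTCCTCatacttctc
Itgax: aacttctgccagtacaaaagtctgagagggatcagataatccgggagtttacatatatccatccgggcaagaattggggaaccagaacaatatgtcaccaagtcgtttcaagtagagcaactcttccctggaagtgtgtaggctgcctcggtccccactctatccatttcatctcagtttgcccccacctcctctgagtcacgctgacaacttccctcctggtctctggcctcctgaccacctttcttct
The core GAGGAA stood in *Itgam* from 84 to 79 and, on the other strand, from 15 to 10 bases before the start, and no match of the 3 motifs was in the *Itgax* window. GAGGAA is short and occurred in 23.3% of all 32851 RefSeq promoter windows, and in 14 (42.4%) of the 33 windows of the 30 adhesion receptor genes with an entry. A match of letters is a description of the window and no evidence of binding.

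The subunits of other leukocyte integrins gave another picture. *Itgb7* (16421), the β7 chain that pairs with α4 or αE in gut-homing lymphocytes, had 174, 178 and 143 counts in WT, against 93, 56 and 115 in *Aff3ir-ORF2-/-* libraries. The fall by 0.98 on the log2 scale (SE 0.23, 1.98-fold lower, adjusted p = 0.00677 by edgeR's quasi-likelihood test) left no overlap between the genotypes. *Itgae*, the αE chain, had 5, 6 and 5 against 4, 1 and 3 counts, and *Itgad*, the αD chain, had 0, 0 and 0 against 2, 1 and 2. Both were too low for the filter.

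Matrix integrins numbered 19, of which 18 were tested. Of these 8 rose, beside 14.2% of all tested genes, and 2 fell, beside 7.27%, and their median log2 fold change was 0.48. *Itgb1* (16412), the shared β1 chain and the most abundant member, had 45750, 47438 and 47584 counts in WT, against 64567, 63649 and 58684 in *Aff3ir-ORF2-/-* libraries. Its level was 2691 ± 35.6 against 3385 ± 176 CPM, a log2 difference of 0.33 ± 0.05 with an adjusted p of 5.14e-04 by edgeR's quasi-likelihood test but under the 1.5-fold criterion. No *Aff3ir-ORF2-/-* library overlapped a WT library.

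Among the α subunits that bind collagen, 3 of 4 rose, beside 14.2% of all tested genes, and the median log2 fold change was 1.37. *Itga1* (109700), the α1 chain of a collagen IV receptor, had 124, 139 and 149 counts in WT, against 533, 617 and 486 in *Aff3ir-ORF2-/-* libraries, a rise of 1.91 ± 0.10 on the log2 scale or 3.76-fold (adjusted p = 1.33e-06 by edgeR's quasi-likelihood test). It shares part of its locus with *Pelo*, which had a mean of 250.5 counts. *Itga11* (319480), the α11 chain of the fibrillar collagen receptor of fibroblasts, had 875, 793 and 857 counts against 2525, 3255 and 2485. Its level went from 48.3 ± 2.89 to 150 ± 21.8 CPM, 3.10-fold. Both were high in every *Aff3ir-ORF2-/-* library. *Itga10*, the α10 chain of cartilage, had 27, 20 and 12 counts against 40, 52 and 43, a rise of 1.11 ± 0.28 on the log2 scale. *Itga2*, the α2 chain of platelets and epithelium, had 54, 55 and 45 counts against 50, 38 and 38, and its adjusted p was 0.135.

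Of the 4 laminin-binding subunits 2 rose and 2 fell, beside 14.2% and 7.27% of all tested genes. Their median log2 fold change was -0.04. *Itga3* and *Itga7* rose. *Itga3*, the α3 chain, had 180, 192 and 200 counts in WT, against 475, 297 and 549 in *Aff3ir-ORF2-/-* libraries, and *Itga7*, the α7 chain of muscle, had 531, 525 and 493 against 856, 967 and 767. Their log2 fold changes were 1.13 ± 0.24 and 0.66 ± 0.08 (adjusted p = 0.00692 and 1.10e-04 by edgeR's quasi-likelihood test). *Itga6* and *Itgb4* fell. *Itga6* (16403), the α6 chain, had 2132, 2125 and 2285 counts against 1514, 1046 and 1551, and its level fell 1.68-fold (log2 fold change -0.75 ± 0.16). *Itgb4*, the β4 chain that holds epithelium to its basement membrane, had 25, 29 and 38 counts against 19, 22 and 14, with an adjusted p of 0.0269 by edgeR's quasi-likelihood test. Its call was lost in 5 of 15 alternative settings, among them without WT replicate 2 or 3 or *Aff3ir-ORF2-/-* replicate 3, with an adjusted p of up to 0.120. *Itgb4* shares its locus with *Galk1*, which had a mean of 1175.8 counts. Of 2 tested epithelial markers *Cldn3*, which reached the filter through *Aff3ir-ORF2-/-* libraries only, was called higher, and the 10 listed summed to 4.23 to 4.92 CPM in WT and 4.35 to 6.37 CPM in *Aff3ir-ORF2-/-* libraries.

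RGD-binding subunits, which hold fibronectin, vitronectin and latent TGF-β, numbered 8. Of the 7 tested 2 rose, beside 14.2% of all tested genes, and the median log2 fold change was 0.29. *Itga8* (241226), the α8 chain of smooth muscle and kidney mesenchyme, had 180, 192 and 215 counts in WT, against 717, 1013 and 647 in *Aff3ir-ORF2-/-* libraries. This was 3.83-fold (1.94 ± 0.18 on the log2 scale, adjusted p = 1.29e-04 by edgeR's quasi-likelihood test). *Itgb5*, the β5 partner of αV, had 3526, 3303 and 3374 counts against 5562, 6723 and 5023, and rose 1.61-fold from 195 ± 8.49 to 313 ± 44.1 CPM.

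The fibronectin receptor chain *Itga5* (16402) did not pass. It had 16536, 16769 and 16483 counts in WT, against 16595, 13325 and 16269 in *Aff3ir-ORF2-/-* libraries, a log2 difference of -0.18 ± 0.08 with an adjusted p of 0.0897. The αV chain *Itgav* had 10017, 10492 and 10610 counts against 13379, 12117 and 12691. *Itgav* and *Itgb3* (the β3 chain) differed by log2 fold changes of 0.22 ± 0.05 and 0.29 ± 0.06, past the adjusted p but not the fold. *Itga2b*, the αIIb chain of platelets, and *Itgb8*, a receptor chain for latent TGF-β, had adjusted p values of 0.563 and 0.148 by edgeR's quasi-likelihood test at 13 to 32 counts a library, and *Itgb6*, the β6 chain of epithelium, reached at most 5 counts.

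Of the α4 and α9 chains, which bind VCAM1 as well as fibronectin fragments, *Itga4* (16401) had 451, 478 and 478 counts in WT, against 806, 1069 and 569 in *Aff3ir-ORF2-/-* libraries. It rose 1.64-fold (0.72 ± 0.22 on the log2 scale, adjusted p = 0.0366 by edgeR's quasi-likelihood test), a call lost in 6 of 15 alternative settings. *Itga4* shares its locus with *Cerkl*, which had a mean of only 2.3 counts. *Itga9* had 279, 301 and 323 counts against 248, 275 and 236, a difference of -0.33 ± 0.09 that missed the fold criterion.

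Markers of smooth and skeletal muscle were higher too. All 6 tested of the 8 measured rose, beside 14.2% of all tested genes, and *Pax7* and *Myh3* were at the floor. The summed level was 2646 to 2731 CPM in WT and 4969 to 5434 CPM in *Aff3ir-ORF2-/-* libraries. Most of it was *Acta2*, at 2450 ± 35.4 and 4378 ± 154 CPM. The sum was highest in *Aff3ir-ORF2-/-* replicate 1, as were *Acta2*, *Cnn1* and *Acta1*. *Myh11*, *Des* and *Actg2* were highest in replicate 2, and so were *Itga1*, *Itga7* and *Itga8*. The part of these markers in the change of *Itga1*, *Itga7* and *Itga8* was not tested.

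**Figure D3:**
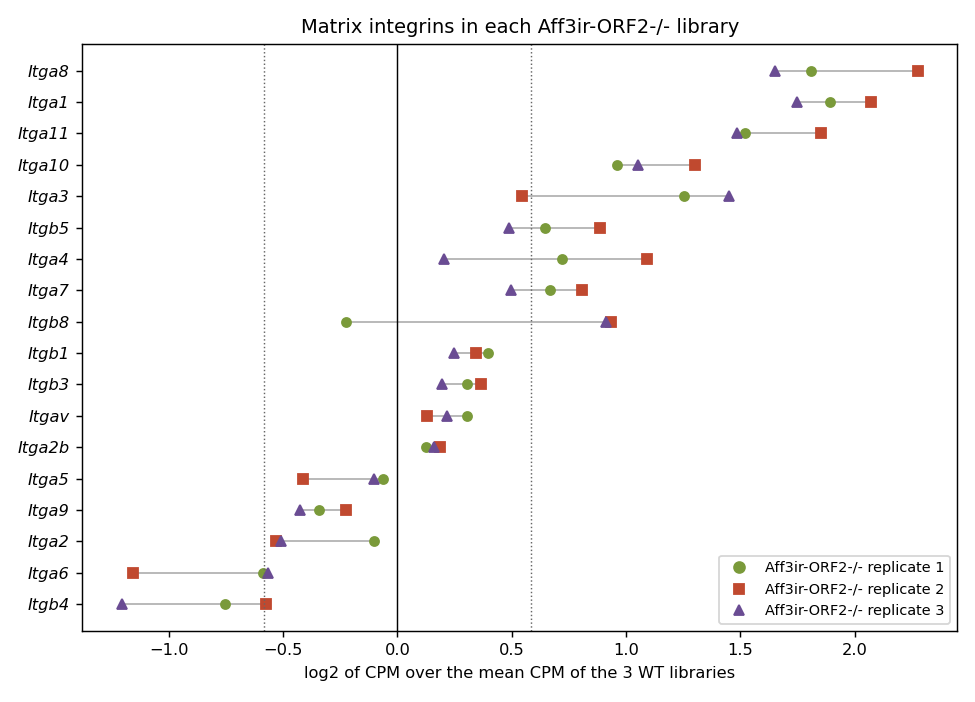
Log2 ratio of each matrix integrin in each *Aff3ir-ORF2-/-* library to the WT mean (x axis, log2), 1 gene a row, with a symbol for each library and dotted lines at 1.5-fold. For 10 of 18 genes (55.6%) replicate 2 is the *Aff3ir-ORF2-/-* library that lies farthest from the other *Aff3ir-ORF2-/-* libraries. The share was 48.9% among the 12174 tested genes compared in this way.

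Without *Aff3ir-ORF2-/-* replicate 2, 5 matrix integrins rose in place of 8, since *Itga7* (0.58), *Itgb5* (0.57) and *Itga4* (0.48) came under the fold criterion, as did *Itga6* (-0.58). *Itgam* and *Itgb2* were called without it, as were *Itgal* and *Itgax*, which reach the filter through *Aff3ir-ORF2-/-* libraries only.

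The distance between the leukocyte and the matrix integrins was 5.09 on the log2 scale between class medians of the fit (5.57 against 0.48). It was 4.31, 4.22 and 4.99 in *Aff3ir-ORF2-/-* replicates 1, 2 and 3 taken singly. These single-library values are from log2 CPM with a prior count of 2 added, so they are not the same measure as 5.09. The leukocyte median is the value of *Itgal*, which had to come out higher. With *Itgal* at its lower bound the distance was 4.99, and with *Itgal* left out 4.59. It rested on 3 and 18 tested genes and is given as a description, without a test.

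Levels were compared between genes per kilobase of the longest GENCODE M21 transcript. In WT, *Itga5* held 60.5% ± 0.698 (SD, n = 3) of the summed per-length level of all α subunits and *Itgav* 23.5% ± 0.470. In *Aff3ir-ORF2-/-* cells they held 49.7% ± 3.01 and 25.6% ± 0.660. The share of *Itga11* went from 2.71% ± 0.159 to 7.94% ± 1.76, that of *Itga6* from 8.08% ± 0.302 to 4.49% ± 0.693, and that of *Itgam* from 0.0488% ± 0.0134 to 2.70% ± 0.733. *Itgam* thereby moved from rank 14 to rank 6 among the α chains. Of the β chains, *Itgb1* held 90.8% ± 0.383 in WT and 88.0% ± 1.01 in *Aff3ir-ORF2-/-* cells, and *Itgb2* went from 0.0944% ± 0.0169 to 1.42% ± 0.398. The genotypes did not overlap in these shares. The transcript a gene uses here was not known, so the per-length levels hold only as far as the longest transcript stands for it.

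**Figure D4:**
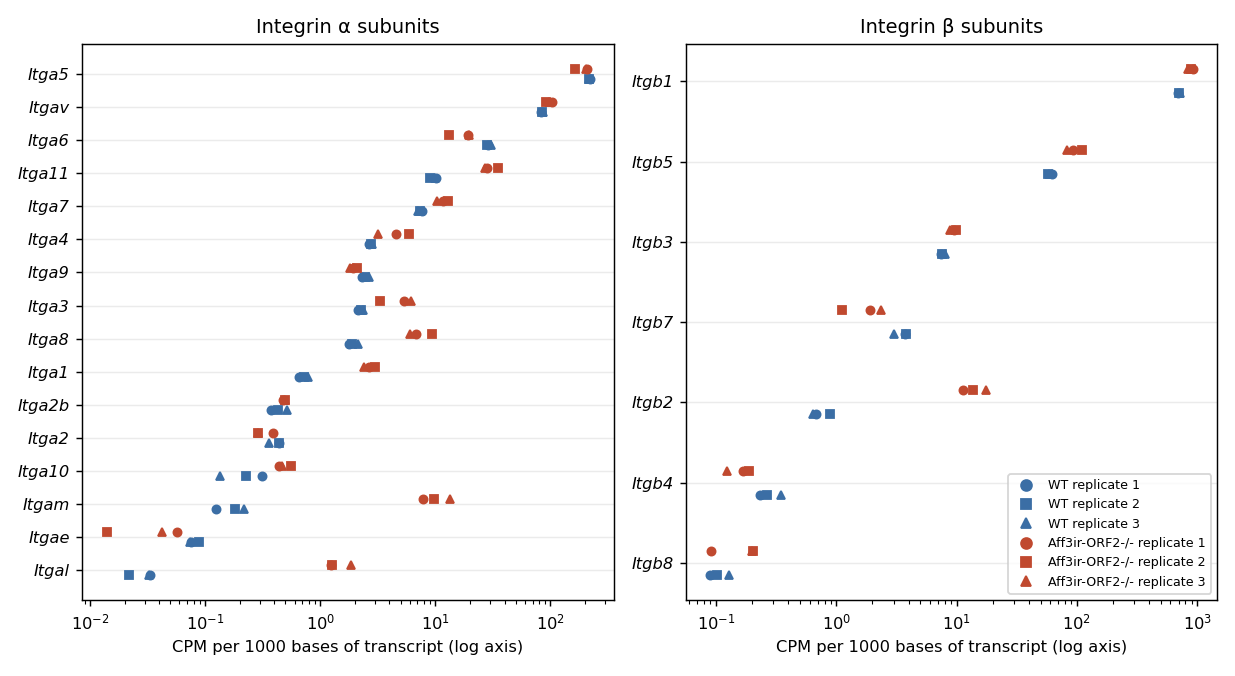
CPM per kilobase of the integrin α and β subunits in each library by genotype (points, log axis); subunits with a library at 0 are not drawn. *Itga5* and *Itgav* lie highest among the α chains and *Itgb1* among the β chains in every library, and *Itgam* and *Itgb2* rise from low places in the WT order to rank 6 and rank 3.

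Selectins, PSGL-1 and the ICAM and VCAM1 receptors form the leukocyte-capture arm, and 4 of its 5 tested members were called higher, beside 14.2% of all tested genes. Among them, *Selplg*, was tested only because it is high in *Aff3ir-ORF2-/-* libraries. *Selp* (20344), P-selectin, stored in platelets and endothelium, had 13, 16 and 16 counts in WT, against 150, 129 and 185 in *Aff3ir-ORF2-/-* libraries. It went from 0.860 ± 0.0918 to 8.41 ± 1.59 CPM, 9.71-fold (3.28 ± 0.21 on the log2 scale, adjusted p = 2.72e-06 by edgeR's quasi-likelihood test). *Selplg* (20345), its ligand on leukocytes, had 5, 0 and 1 counts against 31, 61 and 53, or 0.116 ± 0.154 against 2.62 ± 0.819 CPM, and its WT level rests on too few reads to fix a fold. Neither overlapped between the genotypes.

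*Icam1* (15894) is the ligand of LFA-1 and Mac-1, the receptors formed by αL and αM with β2. It had 67, 68 and 65 counts in WT, against 378, 549 and 532 in *Aff3ir-ORF2-/-* libraries, or 3.82 ± 0.0907 against 26.4 ± 4.89 CPM, 6.89-fold higher (2.79 ± 0.16 on the log2 scale, adjusted p = 2.36e-06 by edgeR's quasi-likelihood test). *Vcam1* (22329), the ligand of α4β1, had from 2529 to 2732 counts in WT and from 4348 to 4649 in *Aff3ir-ORF2-/-* cells. It was already at 152 ± 4.51 CPM in WT and stood at 246 ± 7.99 CPM in *Aff3ir-ORF2-/-* cells, 1.62-fold higher (log2 0.70 ± 0.05). By the per-length level *Vcam1* stood above *Icam1* in both genotypes. *Sele*, E-selectin, had 18, 12 and 13 counts against 10, 10 and 20 (adjusted p = 0.699). *Icam2*, *Icam4* and *Icam5* were too low for the filter, with at most 17 counts in any library.

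The promoters of *Icam1* and *Selp* are shown beside that of *Itga5*, the most abundant α chain, as those of 2 receptors that rose and 1 that did not pass. The windows lie at chr9:21015690-21015939 on the plus strand, chr1:164115014-164115263 on the plus strand and chr15:103366792-103367041 on the minus strand of GRCm38.p6, with capitals as above.
Icam1: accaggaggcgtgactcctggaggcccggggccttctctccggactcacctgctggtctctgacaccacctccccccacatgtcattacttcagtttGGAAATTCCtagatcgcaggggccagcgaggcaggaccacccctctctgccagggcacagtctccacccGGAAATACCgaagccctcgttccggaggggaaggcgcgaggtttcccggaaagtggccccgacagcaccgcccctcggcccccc
Selp: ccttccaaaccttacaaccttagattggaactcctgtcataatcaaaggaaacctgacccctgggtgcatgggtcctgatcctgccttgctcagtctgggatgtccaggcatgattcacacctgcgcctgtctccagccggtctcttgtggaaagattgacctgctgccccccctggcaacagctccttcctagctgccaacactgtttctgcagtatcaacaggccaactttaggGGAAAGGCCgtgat
Itga5: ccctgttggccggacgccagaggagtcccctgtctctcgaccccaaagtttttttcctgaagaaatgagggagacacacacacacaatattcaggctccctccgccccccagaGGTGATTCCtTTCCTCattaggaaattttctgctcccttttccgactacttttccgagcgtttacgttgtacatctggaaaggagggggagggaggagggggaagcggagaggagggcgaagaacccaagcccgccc
*Icam1* held the loose NF-κB motif from 153 to 145 and from 84 to 76 bases before the start and *Selp* from 14 to 6. The same motif was in *Itga5* from 137 to 129, beside a GAGGAA core on the other strand from 127 to 122. GGNNNTTCC stood in 6 of the 33 windows, which is 18.2%, beside 15.7% of all windows, and GAAANNGAA in 5 of 33 (15.2%) beside 7.13%. The matches in the windows shown do not overlap each other.

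Endothelial and platelet markers are given because *Selp* is expressed in both cell types and *Icam1* in endothelium. Of the 10 endothelial markers measured 6 were tested, with *Vwf*, *Erg* (through *Aff3ir-ORF2-/-* libraries only) and *Kdr* higher and *Cdh5* lower. *Tek* (through WT libraries only) and *Egfl7* also had negative log2 fold changes, -1.28 ± 0.52 and -0.39 ± 0.17. Their adjusted p values were 0.0564 and 0.0791 by edgeR's quasi-likelihood test. Of all tested genes 14.2% rose and 7.27% fell. The endothelial sum was 11.6 to 11.9 CPM in WT and 19.1 to 23.8 CPM in *Aff3ir-ORF2-/-* libraries. *Pecam1*, an endothelial and leukocyte receptor that is a member here, had 2, 5 and 5 counts against 2, 3 and 4, and *Sox17* and *Robo4* were at the floor. Of the 5 mast cell and platelet markers measured 3 were tested, with a sum of 8.87 to 12.8 CPM in WT and 10.2 to 25.4 CPM in *Aff3ir-ORF2-/-* libraries. *Pf4*, platelet factor 4, had 1, 0 and 0 counts against 18, 22 and 53 and reached the filter through *Aff3ir-ORF2-/-* libraries only. *Ppbp* and *Gp1bb* had adjusted p values of 0.329 and 0.884 by edgeR's quasi-likelihood test, and *Gp9* and *Cpa3* were at the floor. The part of these cells in the rise of *Selp* and *Icam1* was not tested.

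Junctional adhesion molecules hold cells together at tight junctions and some are bound by leukocyte integrins. *F11r* (JAM-A) had 212, 213 and 191 counts in WT, against 386, 391 and 342 in *Aff3ir-ORF2-/-* libraries, and *Jam2* had 183, 155 and 206 against 338, 303 and 347. Each was 1.72-fold higher (0.78 ± 0.09 and 0.78 ± 0.11 on the log2 scale, adjusted p = 5.30e-05 and 3.02e-04 by edgeR's quasi-likelihood test). *Jam3* differed by 0.19 ± 0.05, under the fold criterion. No *Aff3ir-ORF2-/-* library overlapped WT in any of the 3.

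Nectins, the immunoglobulin receptors of adherens junctions, did not rise or fall by the criteria. *Nectin2* had 1815, 1837 and 1777 counts against 1527, 1572 and 1460, a log2 difference of -0.33 ± 0.04 from 104 ± 1.87 to 82.6 ± 2.64 CPM. *Nectin1* and *Nectin3* had adjusted p values of 0.432 and 0.0989 by edgeR's quasi-likelihood test, and *Nectin4* reached at most 5 counts. Among the remaining immunoglobulin receptors *Alcam* (11658), a receptor for CD6 and for itself, had 737, 689 and 803 counts against 1259, 1255 and 1329, and rose 1.63-fold from 42.6 ± 3.39 to 69.6 ± 2.57 CPM. *Ncam1* had 3776, 4053 and 4106 counts against 3146, 3763 and 2772. *Mcam* (CD146 of vessels and pericytes) and *Ncam1* differed by 0.56 ± 0.09 and -0.38 ± 0.10, past the adjusted p but not the fold, and *L1cam* had an adjusted p of 0.331. Of the 10 tested members of these families 3 rose, beside 14.2% of all tested genes, with a median of 0.18.

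**Figure D5:**
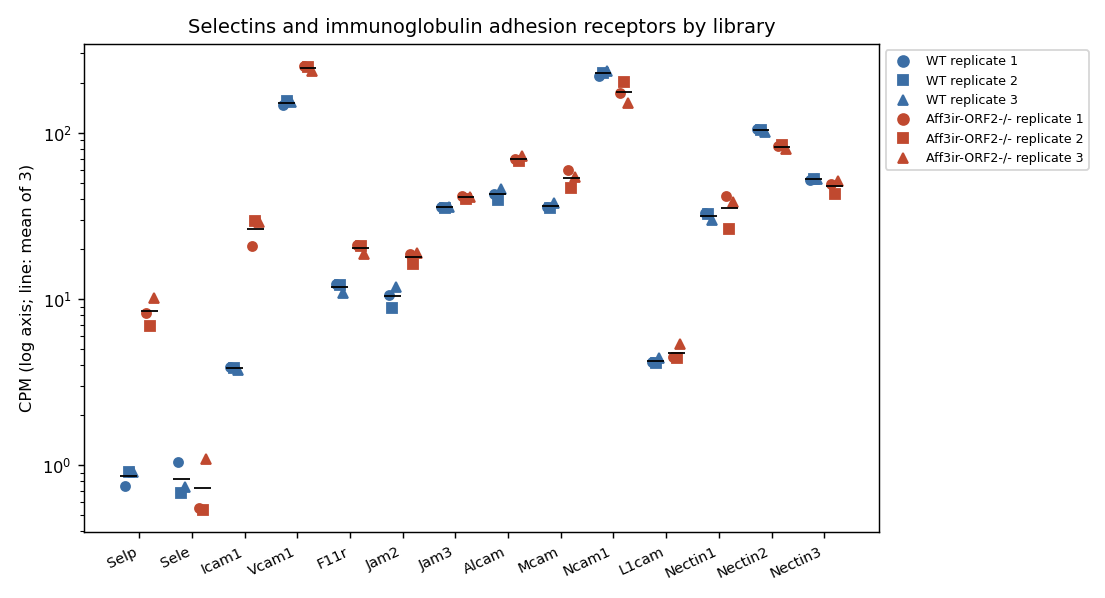
CPM of the selectins and tested immunoglobulin receptors in each library (points, log axis, lines for the mean of 3 libraries), by genotype; *Selplg*, with a library at 0, is not drawn. *Selp* and *Icam1* separate widely, *Vcam1*, *F11r*, *Jam2* and *Alcam* by less than 2-fold, and *Sele* overlaps.

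Genes that link integrins to the cytoskeleton were read as lists. Of the 24 focal adhesion adaptors of fibroblasts tested, 2 rose and 1 fell, beside 14.2% and 7.27% of all tested genes, with a median log2 fold change of -0.07. *Tns2*, a tensin, went from 22.6 ± 0.346 to 51.7 ± 2.44 CPM (1.19 ± 0.06 on the log2 scale, adjusted p = 9.20e-07 by edgeR's quasi-likelihood test), *Lims2* rose 1.55-fold, and *Tln2*, the second talin, fell 2.21-fold (-1.14 ± 0.07 on the log2 scale). *Tln1*, the main talin, had 1045 ± 12.4 against 1010 ± 65.6 CPM.

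Of the 21 adaptors and kinases of haematopoietic cells measured 16 were tested and 11 called higher. Among the 16, *Vav1*, *Lcp2*, *Dock2*, *Coro1a*, *Fermt3* and *Parvg* reached the filter through *Aff3ir-ORF2-/-* libraries only and had to come out higher. Of the other 10, 5 rose, beside 14.2% of all tested genes, with a median log2 fold change of 0.54. The difference between the 2 lists was not tested. *Fermt3*, the kindlin of blood cells that opens β2 integrins, had 8, 9 and 5 counts in WT, against 194, 211 and 338 in *Aff3ir-ORF2-/-* libraries. *Parvg*, the γ-parvin of leukocytes, went from 4, 6 and 5 counts to 28, 30 and 41. The fibroblast kindlin *Fermt2* differed by -0.29 ± 0.06 on the log2 scale and the parvins *Parva* and *Parvb* by -0.09 ± 0.04 and 0.49 ± 0.20. The part of macrophage RNA in the haematopoietic list was not tested.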

How the data were processed

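Total RNA of MEFs was sequenced in paired-end reads on a DNBSEQ instrument, and the reads were filtered with SOAPnuke. The authors deposited a single table that holds an estimated count for every gene in each library, with no scaling. The submitters' processing notes name the build mm8. The aligner, counting tool and annotation are not given in the sources used here. Of the values of a library 10.6% to 11.3% were not whole and all were rounded, which is small beside the depth of 17435133 to 18252330 counts.

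Groups followed the sample titles. Genes were filtered with filterByExpr (minimum count 10, minimum total 15) and compared by edgeR 4.0.16 (glmQLFit with robust estimation, TMM, no covariates; R 4.3.3). A gene was called at 1.5-fold and 0.05 after Benjamini-Hochberg adjustment. A count of 3 was taken as the floor, which covers counting error only. Members were taken by symbol and all measured ones are accounted for, with counts per library for those past both thresholds or among the 10 highest mean counts. From each pathway list up to 6 genes by adjusted p and up to 4 by mean counts could be named. Members and lists were chosen with earlier results of these data known. *Parvg*, *Parva*, *Parvb*, *Fermt2*, *Cd82* and the named cell markers were chosen after their values were seen. In simulated data edgeR called all 200 of 200 genes changed 3-fold and 5 others of 13040, and with no gene changed 0 of 13052, with 620 at an unadjusted p under 0.05. The simulation gave both genotypes the same spread, unlike these libraries, and changed no gene of low counts. It therefore does not show how the test does with unequal spread or near the floor. Alternatives were other scalings, filters, tools and thresholds, a replicate block and leaving out each library (limma 3.58.1, DESeq2 1.42.0). Figures used Python 3.11.15 and matplotlib 3.10.9. Promoter windows are RefSeq's. The interferon-response motif was shortened, and searches for AP-1 and TATA motifs were dropped, after first matches had been seen. Some genes that follow from the rule are not reported here.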

Additional observations from a re-analysis of the deposited data

How the results depend on the processing

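The count of members that rose was 18, and 11 at a 2-fold criterion and 11 in a test against 1.5-fold (glmTreat), where 8.38% and 8.21% of all tested genes rose. The count that fell was 3, and 6 on the adjusted p alone, 0 at 2-fold and 0 by glmTreat, where 27.5%, 2.42% and 3.14% of all tested genes fell, and 2 to 3 with a library left out. Matrix integrins that rose numbered 8, and 5 at 2-fold, 3 by glmTreat and 5 to 8 with a library left out, where 5 is without *Aff3ir-ORF2-/-* replicate 2. Those that fell numbered 2, and 1 by DESeq2's Wald test, 1 by limma voom, 0 at 2-fold, 0 by glmTreat and 1 to 2 with a library left out. For junctional, nectin and other immunoglobulin receptors, 3 rose, and 5 on the adjusted p alone, 0 at 2-fold, 1 by glmTreat, and 3 to 4 with a library left out; 2 fell on the adjusted p alone. The distance of 5.09 between class medians was 4.58 without a filter, 4.59 with at least 10 counts in every library, and 4.45 to 5.38 with a library left out. The leukocyte median rested on 3 tested genes in the main fit, on 4 without a filter and on 2 with at least 10 counts in every library. With a library left out it rested on 3 or 4. The *Sele* log2 fold change of -0.18 ran from -0.60 to 0.024 with a library left out, reversed without WT replicate 1. Of 553 other values, 535 kept direction and side of the threshold. The cause of these changes was not tested.

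The replicate numbers did not pair the libraries (correlations of deviations 0.0386, 0.0424 and 0.0145), and the replicate block gave 18 risen and 3 fallen members and a distance of 5.10. A fit without robust estimation, added after seeing the data, gave 18 and 3. Depth limits *Itgax*, *Itgad*, *Itgae*, *Icam2*, *Icam4* and *Pecam1*, whose few counts allow no statement on small differences.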

Other observations

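Matrix ligands of the integrins were also read. Of 14 tested, 4 rose (beside 14.2% of all tested genes) in *Aff3ir-ORF2-/-* cells, with a median log2 fold change of 0.30. *Lama5*, the laminin α5 chain bound by α3 and α6 integrins, had 616, 600 and 641 counts in WT, against 2087, 2225 and 2205 in *Aff3ir-ORF2-/-* libraries, 3.32-fold higher (1.73 ± 0.05 on the log2 scale, adjusted p = 6.00e-08 by edgeR's quasi-likelihood test). *Spp1*, osteopontin, bound by αV and α4 integrins, went from 469 ± 6.68 to 1960 ± 459 CPM, and *Vwf* and *Npnt* rose as well. *Fn1* was higher by 0.45 and *Tnc* and *Col1a1* lower by log2 differences of -0.45 and -0.49, all short of the fold criterion.

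Tetraspanins and CD47 sit beside integrins in the membrane. Of 9 tested 3 were called higher, beside 14.2% of all tested genes, *Cd37* through *Aff3ir-ORF2-/-* libraries only. *Cd53*, found on leukocytes, had 25, 19 and 24 counts against 621, 748 and 857, *Cd37* was at least 33.9-fold above the floor, and *Cd82* rose 1.79-fold. Of 10 tested enzymes that build selectin ligands 1 rose, which is no more than the 14.2% of all tested genes. It was *Gcnt1*, a core 2 branching enzyme, from 46, 58 and 52 to 209, 301 and 262 counts. Of 7 tested neural and Schwann cell markers 4 rose and 2 fell, beside 14.2% and 7.27% of all tested genes. The list summed to 50.8 to 57.4 CPM in WT and 29.5 to 35.6 CPM in *Aff3ir-ORF2-/-* libraries.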
